A study of Mus musculus with 12 samples.

Results

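The insulin-like growth factor (IGF) system was followed through 10 of the 15759 rows of a table of normalized read counts, namely the rows named Igf1, Igf2, Igf1r, Igf2r, Igfbp2, Igfbp3, Igfbp4, Igfbp5, Igfbp6 and Igfbp7. All 10 genes were above the filter on low values, a mean of 10 normalized counts. The table covers whole cortex and whole cerebellum of SCA1 KI mice, a knock-in model of spinocerebellar ataxia type 1 whose Atxn1 alleles encode 154 and 2 glutamines, and of wild-type (WT) littermates, all of the C57BL/6J strain and 12 weeks old. The expanded allele is under the endogenous regulation of Atxn1, with no promoter of a single cell type. There are 4 groups, with 3 libraries of poly-adenylated RNA per group. The sources do not say whether a cortex and a cerebellum library came from one mouse. According to the paper, the cerebellum data had been published before by the same laboratory and were analysed again beside the cortex data. Region and dataset therefore cannot be told apart in any comparison of the regions, the interaction of region and genotype included. The p-values below measure only the spread between these libraries.

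IGF-1 and IGF-2 are secreted growth factors that act mainly through the tyrosine kinase receptor IGF1R, whereas IGF2R, also known as the cation-independent mannose 6-phosphate receptor, takes up IGF-2 for degradation in lysosomes. In the extracellular space most IGF is held by binding proteins, which prolong its life, limit its access to the receptor or, after cleavage by proteases, release it. IGFBP7 binds IGF only weakly and is set apart as an IGFBP-related protein. In the adult rodent brain Igf2 is known from the meninges and choroid plexus, Igfbp2 from astrocytes and those same linings, and Igfbp4, Igfbp5 and Igfbp6 from sets of neurons and glia that differ between regions.

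Reads on genes numbered 29520855 to 51311309 per library. Atxn1, the knock-in gene, had 6521 to 8147 normalized counts in WT against 4604 to 7249 in SCA1 KI cortices, and 3628 to 3737 against 3717 to 4138 in cerebella, and counts per gene do not measure the repeat. Markers matched the labelled regions, with 6 granule cell markers summing to 1340 to 2084 normalized counts in cortex libraries and 141401 to 199439 in cerebellum libraries. A list of 7 markers of cortical excitatory neurons summed to 59382 to 90282 in cortex libraries and 14874 to 22727 in cerebellum libraries. Of these only Fezf2, a marker of cortical projection neurons, was at or under 3 reads in every cerebellum library. Markers of tissue outside the labelled region differed with genotype in both regions. A list of 6 markers of thalamus and midbrain summed to 299 to 371 in WT against 995 to 1586 in SCA1 KI cortices, and to 2221 to 3885 in WT against 297 to 379 in SCA1 KI cerebella. These differences run with genotype in all 12 libraries, so leaving out a library does not remove them, and genotype and dissection cannot be told apart by them. Choroid plexus markers varied between cerebellum libraries of one genotype, from 892 to 78202 summed normalized counts. In the cortex, WT library B had 1822 for these markers against 287 and 288 in WT libraries C and D. It also had 140185 against 88586 and 82400 for oligodendrocyte markers and 15076 against 7252 and 8598 for striatal markers. For meningeal markers library B was lower, with 2941 against 3675 and 3901. The part of these differences in the calls below was not tested.

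To compare the genes with each other, normalized counts were divided by the kilobases of merged exons. In the WT cortex the levels per kb were led by Igfbp6 with 1355 ± 122 (SD, n = 3) and Igfbp5 with 1323 ± 138, and the libraries of these 2 genes overlapped. Igfbp2 (823 ± 114), Igfbp7 (816 ± 93.4) and Igfbp4 (674 ± 63.6) followed, of which neighbours in the order overlapped. Below them Igf2 (485 ± 44.4), Igf1r (247 ± 24.1), Igf2r (179 ± 16.6), Igfbp3 (135 ± 21.1) and Igf1 (67.2 ± 10.8) each lay apart from the next. In the WT cerebellum Igfbp5 was first with 1616 ± 102 per kb, above all 3 libraries of Igf2 at 1099.5 ± 260.1, whose libraries overlapped those of Igfbp2 (815 ± 278). Igfbp4 was next to last there with 124 ± 28.7 per kb. Igf1 was the lowest of the 10 genes per kb in all 4 groups, with group means between 52.7 and 67.2. Some of these orders depended on the length used. By the longest transcript in place of merged exons, the libraries of Igfbp5 and Igf2 overlapped in the WT cerebellum. In the WT cortex those of Igf2r and Igfbp3 then overlapped, as did those of Igfbp5 and Igfbp2, whereas Igfbp2 lay apart from Igfbp7.

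**Figure D1:**
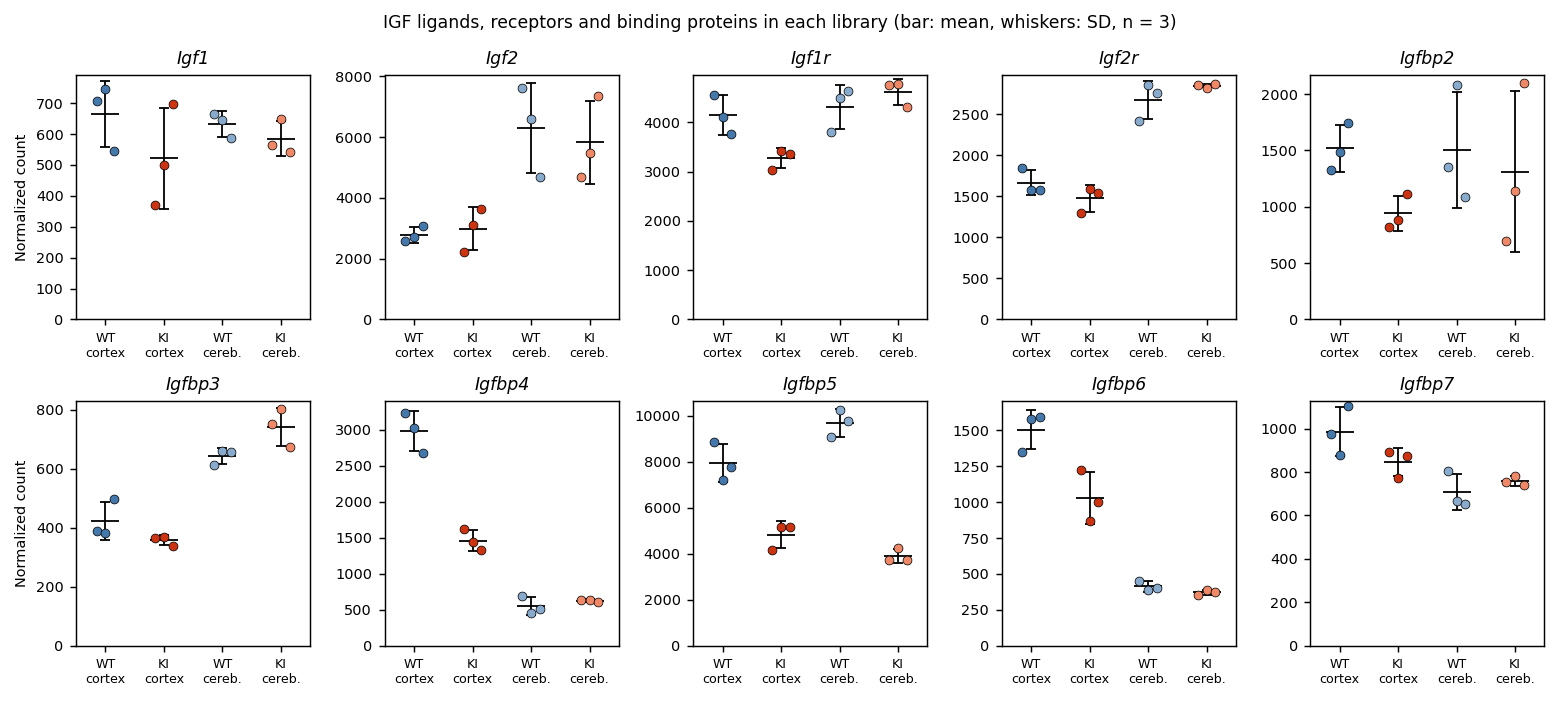
Normalized counts (vertical axes, each from 0) of the 10 IGF genes in each of the 12 libraries, as points by region and genotype, with the mean as a bar and the SD as whiskers (n = 3). Igfbp5 was between 3707 and 4242 in SCA1 KI and between 9059.5 and 10274 in WT cerebella, and Igfbp4 between 1324 and 1619 against 2673 and 3227 in the cortex.

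**Figure D2:**
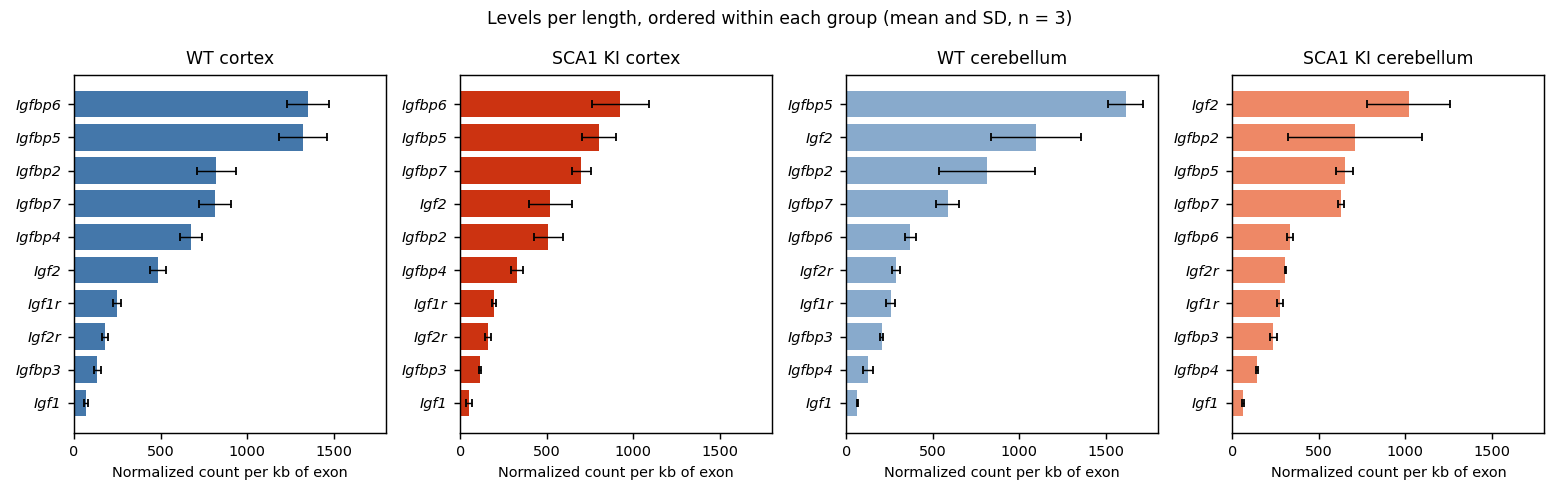
Normalized counts per kb of merged exons (horizontal axes) of the 10 IGF genes in each group, ordered within the group, as mean and SD (n = 3). Igfbp5 was number 2 in both cortex groups, number 1 in WT cerebellum and number 3 in SCA1 KI cerebellum.

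The first question was which parts of the IGF system differed between SCA1 KI and WT mice in the cortex. The receptor Igf1r and the binding proteins Igfbp4, Igfbp5 and Igfbp6 were lower in the SCA1 KI cortex, with means between 49.0% and 79.1% of WT, and no member was higher. Thus 4 of 10 members passed in the downward direction with limma (adjusted p under 0.05 and an absolute LFC, the log2 fold change on log2(normalized count + 1), over 0.25), where 10.8% of all 15369 tested genes were called lower, 4.82% higher and 15.6% in either direction. edgeR likewise called 4 lower and 0 higher (10.6% and 5.48% of all tested genes), as did DESeq2 (12.0% and 5.31%). In limma 5 members had an unadjusted p under 0.05, all of them lower, as had 4689 of all 15369 tested genes in either direction. The LFC was below 0 for 9 of the 10 genes, as it was for 7755 of all 15369 tested genes. Its median was −0.36 over the members against −0.0028 over all tested genes. In a bulk tissue, fewer cells of a type and less RNA per cell cannot be told apart. In the same cortex libraries 6 of 8 astrocyte markers were lower, with sums of 153443 to 216248 against 298579 to 300844 in WT, as were 3 of 7 markers of excitatory neurons (59382 to 70325 against 88378 to 90282) 2 of 7 of interneurons and 4 of 6 of the Purkinje cell list (25639 to 30414 against 45774 to 48677), while 4 of 6 thalamus and midbrain markers were higher. Of the 5 tested striatal markers 1 was lower, as was the 1 blood marker in the table, Alas2. No marker of endothelium, mural cells, microglia, oligodendrocytes, meninges or choroid plexus was called there by limma, and 1 of endothelium and 1 of mural cells had an unadjusted p under 0.05. The part of these lists in the IGF differences was not tested.

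In the cerebellum the picture was narrower. Igfbp5 alone was called, and it was lower, making 1 of 10 members, where 5.36% of all tested genes were called in either direction, 4.44% lower and 0.917% higher. edgeR also called 1 lower and 0 higher (4.69% and 0.943% of all tested genes), as did DESeq2 (5.98% and 1.50%). Igfbp5 was the only member with an unadjusted p under 0.05 in limma, where 2664 of all 15369 tested genes had one. Of the 10 LFC, 5 were above and 5 below 0, where 7881 of all 15369 tested genes were below 0. The median was −0.0065 over the members against −0.0049 over all tested genes. In the same libraries all 6 thalamus and midbrain markers were lower in SCA1 KI, as were 2 of 8 astrocyte markers (sums of 191055 to 195357 against 229093 to 245128 in WT), 2 of 8 oligodendrocyte markers (156070.1 to 156719 against 183472 to 274306), 2 of 7 interneuron markers (44876 to 47217 against 54491 to 55197), 1 of 6 Purkinje cell markers (286352 to 323303 against 324607 to 405364) and 1 of 8 microglia markers. Of 7 cortical excitatory markers 1 was higher and 1 lower. The part of these lists was not tested.

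**Figure D3:**
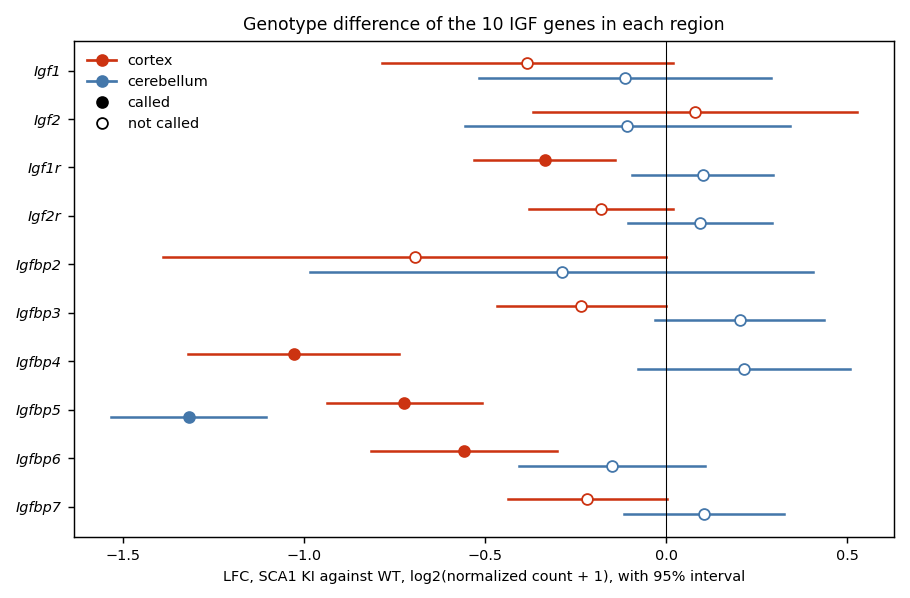
LFC of SCA1 KI against WT (horizontal axis, log2(normalized count + 1)) with its 95% interval from limma for each IGF gene in the cortex and the cerebellum, filled where called. In the cortex 9 of 10 points lie below 0, as did the LFC of 7755 of all 15369 tested genes. In the cerebellum Igfbp5 at −1.32 is the 1 filled point.

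Neither ligand was called in a region. Igf1, on chromosome 10 from 87858265 to 87937042 (GRCm38, plus strand), had 707, 745 and 544 normalized counts in WT cortex libraries B, C and D and 372, 499 and 696 in SCA1 KI libraries A, E and F. SCA1 KI library F lay within the WT range and the other 2 below it. The LFC was −0.38 (95% interval −0.79 to 0.02, adjusted p = 0.186 from limma), and without library F it was −0.61 and passed (adjusted p = 0.0200). In the cerebellum Igf1 was between 541 and 666 in all 6 libraries, with an LFC of −0.11 (95% interval −0.52 to 0.29).

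Igf2, an imprinted gene on chromosome 7 from 142650766 to 142666816 (minus strand), shares 3596 exon bases with Gm49394 on the same strand and 98 with Igf2os on the other, so part of its reads could belong to those transcripts. Its normalized counts were 2574, 2697 and 3063 in WT cortex libraries B, C and D against 2220.3, 3116 and 3627 in SCA1 KI libraries A, E and F, groups that overlapped, with an LFC of 0.08 (95% interval −0.37 to 0.53). In the cerebellum its groups overlapped too, with an LFC of −0.11 (95% interval −0.55 to 0.34).

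Of the receptors, Igf1r, the signalling receptor, lies on chromosome 7 from 67952827 to 68233668 (plus strand) and had 4566, 4102 and 3759 normalized counts in WT cortex libraries B, C and D and 3041, 3423 and 3367 in SCA1 KI libraries A, E and F. All 3 SCA1 KI libraries were below all 3 WT libraries, a separation towards lower values that 18.0% of all tested genes showed in the cortex. The LFC was −0.34 (SE 0.090, adjusted p = 0.0213 from limma). This call rested on single libraries and on the handling of length and GC content, since it was lost without SCA1 KI library A (adjusted p = 0.0711), WT library B (0.0821) or WT library C (0.0571), and with the trend of each library on transcript length and GC content removed, which moved the LFC to −0.18 (adjusted p = 0.0666). In the cerebellum Igf1r was 4313 ± 444 in WT and 4616 ± 264 in SCA1 KI (SD, n = 3), an LFC of 0.10 (95% interval −0.09 to 0.30). The difference between the regions in the genotype LFC was −0.44 (adjusted p = 0.0528 from limma) and did not pass. It passed with median centring (adjusted p = 0.0395), with DESeq2 (0.0183) and without WT cerebellum library 6 (0.0489) or WT cortex library D (0.0316).

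Igf2r, the clearance receptor, lies on chromosome 17 from 12682406 to 12769664 (minus strand). It had 1576 to 1848 normalized counts in WT and 1294 to 1594 in SCA1 KI cortex, and 2419 to 2853 against 2828 to 2866 in the cerebellum. The groups overlapped in both regions, with an LFC of −0.18 (95% interval −0.38 to 0.02) and 0.09 (95% interval −0.10 to 0.29).

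Igfbp5, the most conserved of the IGF binding proteins, lies on chromosome 1 from 72857932 to 72874884 (minus strand) and was the one member lower in both regions. In the cerebellum it had 9059.5, 10274 and 9789 normalized counts in WT libraries 2, 4 and 6 and 3707, 4242 and 3738 in SCA1 KI libraries 1, 3 and 5. All 3 WT libraries lay far above the SCA1 KI libraries, and the SCA1 KI mean was 40.1% of WT (LFC −1.32, SE 0.099, adjusted p = 1.17e-05 from limma). In the cortex it had 8848, 7218 and 7773 in WT libraries B, C and D and 4144, 5147 and 5175 in SCA1 KI libraries A, E and F. Here too the groups lay apart, with a mean of 60.7% of WT (LFC −0.72, SE 0.099, adjusted p = 3.31e-04). Both calls held in each setting tried.

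Beside the cerebellar difference, the thalamus and midbrain markers summed to 2221 to 3885 in WT against 297 to 379 in SCA1 KI libraries, and beside the cortical one to 299 to 371 against 995 to 1586, and their part in either was not tested. The fall of Igfbp5 was greater in the cerebellum, by an interaction of 0.59 (SE 0.14, adjusted p = 0.0198 from limma), 1 of 2 members among 10 whose genotype LFC differed between the regions, where 8.15% of all tested genes did. This difference was lost without SCA1 KI cerebellum library 1 (adjusted p = 0.0599) or 5 (0.0531) or WT cortex library C (0.0556).

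Igfbp4, which holds IGF away from its receptor until the protease PAPP-A cleaves it, was the other such member. It lies on chromosome 11 from 99041244 to 99054392 (plus strand). In the cortex it had 3227, 3028 and 2673 normalized counts in WT libraries B, C and D and 1619, 1433 and 1324 in SCA1 KI libraries A, E and F. Every SCA1 KI library was below every WT library, and the mean was 49.0% of WT (LFC −1.03, SE 0.13, adjusted p = 2.46e-04 from limma). In the cerebellum it had 690.2, 447 and 507 in WT libraries 2, 4 and 6 and 631, 640 and 606 in SCA1 KI libraries 1, 3 and 5. These groups overlapped, with an LFC of 0.22 (95% interval −0.08 to 0.51). The difference between the regions was −1.24 (SE 0.19, adjusted p = 0.00190) and passed in each setting tried.

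Igfbp6, a binding protein with a preference for IGF-2, lies on chromosome 15 from 102144362 to 102149511 (plus strand). In the cortex the WT libraries B, C and D had 1349.9, 1579 and 1591 and the SCA1 KI libraries A, E and F had 1225, 866 and 998. The groups did not overlap, though SCA1 KI library A came near WT library B (LFC −0.56, SE 0.12, adjusted p = 0.00585 from limma). In the cerebellum Igfbp6 was 386 to 453 in WT and 353 to 388 in SCA1 KI libraries, with an LFC of −0.15 (95% interval −0.41 to 0.11). The difference between the regions did not pass (−0.41, adjusted p = 0.174), except without SCA1 KI cortex library A (adjusted p = 0.0351).

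The other 3 binding proteins were not called in either region. Igfbp2, the neighbour of Igfbp5 on chromosome 1 from 72824503 to 72852474 (plus strand, 5457 bases from it, tail to tail), had 1327, 1487 and 1744 in WT cortex libraries B, C and D against 824, 883 and 1115 in SCA1 KI libraries A, E and F. These libraries lay apart, at an LFC of −0.69 that did not pass with the spread shared over both regions (SE 0.32, adjusted p = 0.164 from limma) and passed with the cortex fitted on its own (adjusted p = 0.0131). Igfbp3, the main carrier of IGF in serum, on chromosome 11 from 7206086 to 7213923 (minus strand), had 381 to 499 in WT and 337 to 367 in SCA1 KI cortex and 613 to 659.6 against 673 to 801 in the cerebellum. Its libraries lay apart in both regions, lower in SCA1 KI cortex and higher in SCA1 KI cerebellum, a direction in which libraries of 14.3% of tested genes lay apart in the cerebellum, but neither LFC passed (−0.23, adjusted p = 0.162, and 0.20, adjusted p = 0.370), nor did their difference (adjusted p = 0.107). In all, 6 members lay apart and lower in the cortex, where libraries of 18.0% of tested genes did. Igfbp7, known from the vessel wall, on chromosome 5 from 77349240 to 77408041 (minus strand, 85 exon bases shared with Polr2b), overlapped in both regions, with LFC values of −0.22 in the cortex (95% interval −0.44 to 0.00) and 0.11 in the cerebellum (−0.12 to 0.33). Igfbp1, a binding protein of liver that is not among the 10 genes, had 0 reads in every WT cortex library, 0 to 2 in the SCA1 KI cortex libraries and 5 to 17 in the cerebellum libraries and was not tested.

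To show the sequence next to these genes, the 250 bases before the RefSeq start (GRCm38.p6) are given for the 4 members lower in the SCA1 KI cortex, 5′ to 3′ on the strand of the gene, with matches to any of 5 motifs in capitals.
Igf1r, chr7:67952007-67952256, plus strand: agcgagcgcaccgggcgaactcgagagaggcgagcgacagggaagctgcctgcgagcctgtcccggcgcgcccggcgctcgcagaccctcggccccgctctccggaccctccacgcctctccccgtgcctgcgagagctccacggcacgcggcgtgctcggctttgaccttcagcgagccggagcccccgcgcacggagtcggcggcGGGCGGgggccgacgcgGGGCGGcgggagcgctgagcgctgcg
Igfbp4, chr11:99040994-99041243, plus strand: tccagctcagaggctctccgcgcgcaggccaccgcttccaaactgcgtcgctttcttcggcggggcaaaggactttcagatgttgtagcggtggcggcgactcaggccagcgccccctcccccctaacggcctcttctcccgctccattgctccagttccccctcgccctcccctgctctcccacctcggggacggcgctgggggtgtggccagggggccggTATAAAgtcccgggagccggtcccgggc
Igfbp5, chr1:72874866-72875115, minus strand: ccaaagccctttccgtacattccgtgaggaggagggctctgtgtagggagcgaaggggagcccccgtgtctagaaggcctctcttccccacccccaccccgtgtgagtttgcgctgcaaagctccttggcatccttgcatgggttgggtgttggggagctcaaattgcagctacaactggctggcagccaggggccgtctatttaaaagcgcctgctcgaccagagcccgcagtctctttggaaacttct
Igfbp6, chr15:102143936-102144185, plus strand: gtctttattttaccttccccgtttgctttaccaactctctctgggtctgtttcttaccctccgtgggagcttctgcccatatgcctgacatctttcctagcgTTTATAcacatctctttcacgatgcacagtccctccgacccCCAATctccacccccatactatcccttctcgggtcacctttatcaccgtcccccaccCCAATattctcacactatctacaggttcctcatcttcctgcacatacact
Distances are counted from the RefSeq start. For Igf1r, Igfbp5 and Igfbp6 it differs from the GENCODE gene start given above. The Igf1r window ends at 67952256, and the GENCODE start is 67952827. For Igfbp6 these are 102144185 and 102144362. On the minus strand, the Igfbp5 window begins at 72874866, and the GENCODE start is 72874884. Each motif was searched on both strands, and none contains another. The TATA box, searched as TATAAA, lies 28 bases before the start of Igfbp4 and, on the opposite strand, 148 bases before that of Igfbp6, and it was present in 2 of the 14 windows of the 10 genes against 12.4% of all 32851 windows of this length. The GC box, searched as GGGCGG, lies 43 and 26 bases before the start of Igf1r and was present in 6 of the 14 windows against 32.7%. The CCAAT box lies 107 and 50 bases before the start of Igfbp6 and was present in 3 against 33.8%. The E-box, searched as CACGTG, was present in 2 against 6.02%, in the windows of Igf2r and Igfbp2. The octamer of Capicua, a repressor that binds ataxin-1, was searched as TNAATGNA and was present in 0 of the 14 windows against 10.3%. The window of Igfbp5, the member lower in both regions, held none of the 5 motifs. The windows of the 4 genes ranged from 49.6% G and C (Igfbp6) over 58.8% (Igfbp5) and 69.2% (Igfbp4) to 77.6% (Igf1r), against a median of 52.4%.

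Within the cerebellum, Igf2 and Igfbp2 varied more between libraries of one genotype than between genotypes. Igfbp2 had 1349, 2079 and 1087 normalized counts in WT libraries 2, 4 and 6 and 698, 1142 and 2099 in SCA1 KI libraries 1, 3 and 5. Choroid plexus markers in the same order summed to 22831, 74814 and 20103, and to 892, 26070 and 78202. The library with the most Igfbp2 in each genotype was the one with the highest choroid plexus sum. Igf2 had 7614, 6584 and 4680.1 in WT and 4676, 5466 and 7348 in SCA1 KI libraries, so that its order followed that sum within SCA1 KI and not within WT. Meningeal markers in the same order summed to 7182, 5181 and 4894 in WT and 5999, 6062 and 5414 in SCA1 KI cerebella. Igf2 followed this order within WT and not within SCA1 KI, and Igfbp2 in neither genotype. In the cortex meningeal markers summed to 2941, 3675 and 3901 in WT libraries B, C and D. In SCA1 KI cortex libraries A, E and F they summed to 2912, 3436 and 4677. There Igf2 and Igfbp2 both followed the order of the meningeal sum within each genotype. The part of either tissue in the 2 genes was not tested.

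**Figure D4:**
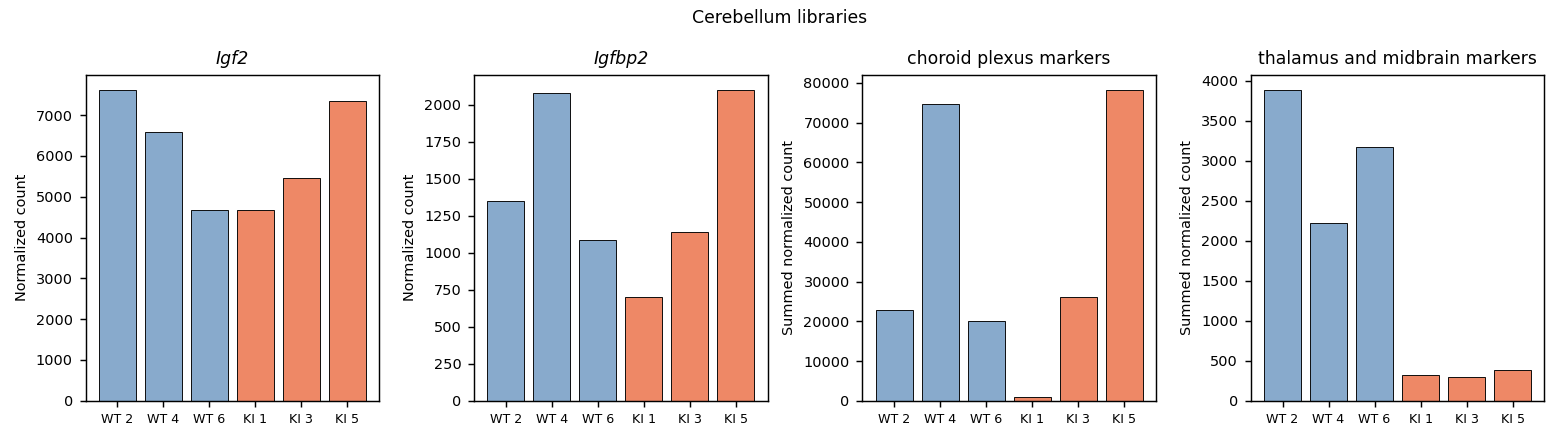
Normalized counts of Igf2 and Igfbp2 and summed normalized counts of 8 choroid plexus markers and 6 thalamus and midbrain markers (vertical axes from 0), 1 bar per cerebellum library. Choroid plexus sums run from 892 to 78202 and overlap between genotypes, whereas the thalamus and midbrain sums are 2221 to 3885 in WT and 297 to 379 in SCA1 KI libraries.

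The second question was how the IGF system differed between the regions in each genotype. In WT mice 7 of 10 members differed, as 61.7% of all tested genes did. Igfbp4 was 5.43-fold higher in the cortex (LFC 2.46), Igfbp6 3.65-fold (LFC 1.86) and Igfbp7 1.39-fold (LFC 0.48). Igf2 (LFC −1.15), Igf2r (−0.68), Igfbp3 (−0.61) and Igfbp5 (−0.29) were higher in the cerebellum. In the same libraries choroid plexus markers summed to 20103 to 74814 in WT cerebella against 287 to 1822 in WT cortices. Meningeal markers summed to 4894 to 7182 against 2941 to 3901. The part of these tissues in the regional difference of Igf2 was not tested. In SCA1 KI mice 7 of 10 differed as well, against 62.4% of all tested genes, with Igfbp4 higher in the cortex by 2.33-fold (LFC 1.22), Igfbp6 by 2.77-fold (LFC 1.45) and Igfbp5 by 1.24-fold (LFC 0.30), and with Igfbp3 (LFC −1.05), Igf2 (−0.97), Igf2r (−0.96) and Igf1r (−0.49) higher in the cerebellum. The order of the regions for Igfbp5 was thus opposite in the genotypes, although each of these calls rested on single libraries. The WT call was lost without cerebellum library 4 or 6 or cortex library C (adjusted p up to 0.0857), and the SCA1 KI call without cerebellum library 1 or 5 or cortex library E or F (adjusted p up to 0.0629), where the libraries of the regions also overlapped. Igf1r in SCA1 KI was not called once the length and GC trend was removed (LFC −0.19). Igf1 and Igfbp2 were not called between the regions in either genotype with all libraries, and in SCA1 KI mice Igf1 passed without cortex library F (adjusted p = 0.0249 from limma) and Igfbp2 without cerebellum library 1 (adjusted p = 0.0365). The comparisons of genotypes and of regions share libraries. Since the cerebellum data come from an earlier dataset, each difference between the regions is also a difference between datasets.

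Summed per kb over the 6 binding proteins, the level came to 5126 ± 199 (SD, n = 3) in WT against 3383 ± 163 in SCA1 KI cortices, and to 3718 ± 306 against 2700.2 ± 370.2 in cerebella. The ranges did not overlap in either region, being 4961 to 5347 against 3195 to 3493 in the cortex and 3444 to 4048 against 2319 to 3059 in the cerebellum. Igfbp5 made up 43.6% ± 3.28 of that sum in WT against 24.3% ± 3.44 in SCA1 KI cerebella, whereas in the cortex it made up 25.8% ± 2.80 and 23.8% ± 3.52. Igfbp4 went from 13.2% ± 1.64 to 9.78% ± 1.06 in the cortex, and Igfbp7 from 15.9% ± 1.21 to 20.7% ± 0.675. In the cerebellum Igfbp7 went from 15.8% ± 2.25 to 23.6% ± 3.45. These are shares of a lower sum. The mean normalized count of Igfbp7 itself was 987 in WT against 847 in SCA1 KI cortices and 709 against 759 in cerebella, and neither difference was called. The sums and shares contain the differences given above and were not tested.

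Genes with the most similar profiles were taken as those with the smallest mean absolute difference of centred log2 values over the 12 libraries, for each of the 4 members called between genotypes. For Igfbp4 these were 4930429B21Rik (0.139), C1ra, a protease of complement (0.160), and Trpc6, a cation channel (0.162). For Igfbp5 they were Smim1 (0.218), Acan, the perineuronal net proteoglycan aggrecan (0.223), and Dagla, an enzyme of endocannabinoid synthesis (0.242). For Igfbp6 they were Ap1s1, Gtdc1 and Baalc (0.088 to 0.107), and for Igf1r they were Glcci1, Ank2 and Uggt1 (0.053 to 0.065). Profiles that are flat outside 1 difference, such as that of Igf1r, lie close to many genes, and the values describe these libraries only.

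Beyond the members, a list of 64 genes of the IGF pathway was read, of which 60 were tested. In the cortex 2 were higher and 8 lower, shares near the 4.82% and 10.8% of all tested genes, with a median LFC of −0.10. Both genes that rose encode adaptor proteins that bind the activated receptors and dampen their signal. Grb10 had 1583, 1683 and 1980 normalized counts in WT and 2507, 2653 and 2891 in SCA1 KI libraries (LFC 0.62, adjusted p = 0.00163 from limma), and Grb14 had 832, 732 and 783 against 1267, 1120 and 1069 (LFC 0.56, adjusted p = 0.00217). Every SCA1 KI library was above every WT library for both genes, as it was for 1994 of all 15369 tested genes in the cortex. Of the 42 tested genes of the signal relay 6 were lower, among them the kinases Akt2 (LFC −0.68, adjusted p = 4.69e-04) and Pdpk1 (−0.30), the regulatory subunit Pik3r2 of phosphoinositide 3-kinase (−0.28), the adaptor Shc3 (−0.59) and the transcription factor Foxo3 (−0.57), which this kinase route keeps out of the nucleus. Akt2 had 4127, 4161 and 3486 in WT and 2144, 2681 and 2535 in SCA1 KI libraries, which lay apart. Of 6 proteases of binding proteins and their inhibitors, 2 were lower, both of them proteases, Htra1 (−0.51), which can cleave IGFBP5, and Adamts1 (−0.46). Stc1, of the inhibitors, did not pass in the cortex (LFC −0.72, adjusted p = 0.0884 from limma). It passed there with DESeq2 (adjusted p = 0.0474), and in limma with the cortex fitted on its own (0.0265) or without WT cerebellum library 2 (0.0116). Without SCA1 KI library A, WT library B or WT library C, 6 genes of the list were called, and Grb10, Grb14, Akt2, Foxo3 and Htra1 were among them in each of these 3 fits. The other calls that are named were less stable. With the cortex fitted on its own Adamts1 (adjusted p = 0.127 from limma), Pdpk1 (0.0981) and Shc3 (0.0747) were not called, and with the length and GC trend removed Pdpk1 (LFC −0.24) and Pik3r2 (−0.19) fell under the LFC limit. Adamts1 was lost in 8 of the 12 fits without 1 library, those of SCA1 KI cerebellum library 1, 3 or 5, WT cerebellum library 4 or 6, SCA1 KI cortex library A and WT cortex library B or C, with an adjusted p up to 0.137. Pdpk1 was lost without SCA1 KI cortex library A (adjusted p = 0.0676) or WT cortex library C (0.0990), Shc3 without these or WT cortex library B (up to 0.0965), and Pik3r2 without WT cortex library B or D or SCA1 KI cortex library F (up to 0.0792).

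In the cerebellum 2 of the 60 genes were lower and 0 higher, near the 4.44% and 0.917% of all tested genes. Stc1, encoding an inhibitor of PAPP-A, had 95.9, 45.2 and 40.8 normalized counts in WT libraries 2, 4 and 6 and 14.3, 15.8 and 17.4 in SCA1 KI libraries 1, 3 and 5 (LFC −1.77, adjusted p = 0.00211 from limma). Irs4, an insulin receptor substrate, had 102, 24 and 29 reads in the WT libraries and 2, 1 and 5 in the SCA1 KI libraries (LFC −3.96, adjusted p = 0.00546), a fold that depends on the pseudocount. Both were highest in WT library 2, which also had the highest sum of thalamus and midbrain markers, and their part was not tested. Shc3, called lower in the cortex, did not pass in the cerebellum (LFC −0.56, adjusted p = 0.0752 from limma). It passed there with DESeq2 (adjusted p = 0.0157) and with the cerebellum fitted on its own (0.0253 from limma). It also passed in limma without WT cerebellum library 4 (adjusted p = 0.0487) or SCA1 KI cortex library A (0.00508). edgeR called 2 and DESeq2 5 of the 60 genes lower in the cerebellum, and neither called any higher. Without SCA1 KI cortex library A, which enters the shared spread, limma called 4. With all libraries 7 of the 60 had an unadjusted p under 0.05 in limma, a smaller share than the 2664 of all 15369 tested genes.

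**Figure D5:**
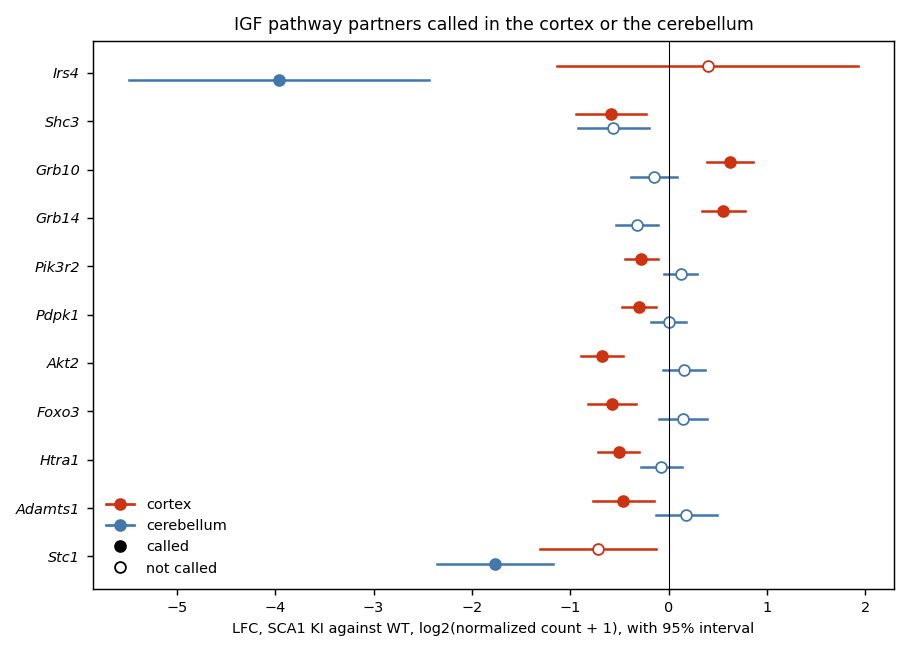
LFC of SCA1 KI against WT (horizontal axis, log2(normalized count + 1)) with its 95% interval from limma for 11 of the 12 genes of the IGF pathway list called in the cortex or the cerebellum, filled where called. In the cortex Grb10 (0.62) and Grb14 (0.56) lie above 0 and the other 7 filled points below it, and in the cerebellum Irs4 (−3.96) and Stc1 (−1.77) are filled.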

How the data were processed

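The authors used STAR (mm10) and featureCounts on paired-end reads of poly-adenylated RNA and deposited DESeq2-normalized counts, a signal equal to the reads of a gene over the library's size factor. The versions are not given in the sources used here. In every library 100% of values were whole reads (tolerance 0.01), which were recovered for edgeR and DESeq2. Columns name region, genotype and library. The labels list males, and the methods both sexes. Values as log2(normalized count + 1) went into limma 3.58.1, R 4.3.3 (12 libraries, 4 group means, 15369 genes with a mean of at least 10, Benjamini-Hochberg adjustment), in place of the authors' DESeq2, since the deposited unit is not a count. A call needed an adjusted p under 0.05 with an LFC beyond 0.25 in either direction, the interaction at the adjusted p alone. Alternatives were each region alone, a minimum mean of 100, no filter, pseudocounts of 0.5 and 5, median centring, edgeR 4.0.16 (quasi-likelihood test), DESeq2 1.42.0, levels by the longest transcript, and 12 fits without 1 library. Removal of a length and GC trend (14639 genes) was added after the data were seen. The fits were tested on simulated data. Coordinates are from GENCODE vM21 and promoters from RefSeq GRCm38.p6. The genes, the marker and pathway lists and the tests were chosen with earlier results of these data known. All 10 genes are named, as are Igfbp1, each listed pathway gene called between genotypes except 1 that is not reported here, and the 3 genes closest in profile to each called member.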

Additional observations from a re-analysis of the deposited data

Results flagged for a closer look

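The genotype LFC differed between the regions, by the interaction term in limma, for 2 of the 10 IGF genes and for 7 of the 60 tested pathway genes, 6 of them named above, where 8.15% of all tested genes differed. The values are cortical minus cerebellar LFC. They were 0.59 for Igfbp5, which was lower in SCA1 KI in both regions and more so in the cerebellum, and −1.24 for Igfbp4, which was called in the cortex (LFC −1.03) and not in the cerebellum (0.22). Among the adaptors they were 0.77 for Grb10 and 0.88 for Grb14, called higher in the cortex, with cerebellar LFC of −0.15 and −0.32 that did not pass in limma, though that of Grb14 passed with DESeq2 (adjusted p = 0.0437) and with the length and GC trend removed (0.0456). Akt2 differed by −0.84, Foxo3 by −0.72 and Pik3r2 by −0.40, all called lower in the cortex. The difference for Pik3r2 was lost with edgeR (adjusted p = 0.0528) and in 10 of 12 limma fits without 1 library, all but those without SCA1 KI cerebellum library 3 or WT cerebellum library 6 (adjusted p up to 0.116). Irs4 differed by 4.35, on 1 to 5 reads per SCA1 KI cerebellum library, and this was lost without WT cortex library C (3.84, adjusted p = 0.0505). In the same libraries thalamus and midbrain markers were higher in SCA1 KI cortex and lower in SCA1 KI cerebellum, and their part was not tested. Groups of 3 libraries were too small for a test of single outlying libraries. How the calls depended on single libraries is given only by the fits without 1 library.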

How the results depend on the processing

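No paired analysis was possible because the columns carry no replicate numbers of the labels, so the fit with a replicate block was not run. The count of members called in the cortex was 3 to 5 in every alternative, and in the cerebellum it was 1 in each. Without 1 library the count of members that passed the interaction of region and genotype ranged from 1 to 3. In the same fits the counts of pathway genes called between genotypes ranged from 6 to 11 in the cortex and 2 to 4 in the cerebellum. Pathway genes called in the cerebellum numbered 1 with a minimum mean of 100 (Irs4 is then not tested), 4 with the region alone and 5 with DESeq2, and for the latter 2 the cause was not tested. With all libraries, 8 LFC changed sign, all of them under 0.2 in size. With the length and GC trend removed these were Igf1 between SCA1 KI regions (0.0085), Igf1r and Igfbp2 between WT regions (0.097 and −0.19), Igfbp7 between SCA1 KI regions (−0.0025) and Pdpk1 in the cerebellum (−0.035). With edgeR they were Igfbp2 between WT regions (−0.0103) and the Shc3 interaction (0.037), which was 0.020 with DESeq2. Leaving out 1 library reversed 20 values, none of them called. The lowest and highest LFC were −0.026 and 0.20 for Igf1 between WT regions, −0.44 and 0.014 between SCA1 KI regions, −0.075 and 0.28 for Igf2 in the cortex, −0.31 and 0.045 in the cerebellum, −0.14 and 0.010 for Igf1r between WT regions, −0.70 and 0.094 for Igfbp2 in the cerebellum, −0.79 and 0.0049 for its interaction, −0.15 and 0.32 between WT regions and −0.73 and 0.063 between SCA1 KI regions. They were −0.40 and 0.83 for Irs4 in the cortex, −0.022 and 0.036 for Pdpk1 in the cerebellum and −0.18 and 0.22 for the Shc3 interaction. By the longest transcript in place of merged exons, 18 in place of 24 neighbours in the per-kb orders lay apart. With 3 libraries a group, the SE of the LFC ranged among the members from 0.090 (Igf1r) to 0.32 (Igfbp2).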
